A study of Homo sapiens with 18 samples.

Results

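The 10 genes of the activin system studied here, namely the ligand genes INHBA, INHBB, INHBE and GDF15, the follistatin family genes FST, FSTL1 and FSTL3, and the receptor genes ACVR1, ACVR2A and ACVR2B, were followed in senescent and control fibroblasts given inhibitors of N-myristoyltransferase. These were 10 of the 28266 gene rows of the count table, and 9 of them were among the 14341 genes that passed the filter on low counts. The genes were chosen by symbol with earlier results of these data in view, in which INHBE showed the greatest rise with both inhibitors in senescent cells among the genes named there. The 2 comparisons of inhibitor with DMSO in senescent cells, and the differences in inhibitor effect between the 2 cell states, are therefore given as descriptions without a test.

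The cells were IMR90 ER:RAS, human lung fibroblasts in which a retrovirus carried a RAS oncoprotein fused to an oestrogen receptor domain. Cells that received 100 nM 4-hydroxytamoxifen (4OHT), which switches the fusion on, are called senescent, and cells that received DMSO are called control; the control cells carry the same transgene. After 7 days each state was given IMP1088 at 300 nM, DDD86481 at 1.5 µM or DMSO for 3 days, and RNA was collected on day 10. This gave 6 groups of 3 libraries, with totals between 16143716 and 23189950 counts, and the labels do not say whether replicates came from separate cultures, while a legend of the study describes its n for such data as independent experiments. All 10 fibroblast markers examined were above the floor of 3 counts, with a summed level of 24721 to 36177 CPM (read counts scaled to a common library size, by TMM) in control libraries, 16554 to 16952 in senescent DMSO libraries and 11436 to 12219 in senescent libraries with an inhibitor. Of 13 markers of epithelial, endothelial, immune and liver cells, CD3E, KRT5, SFTPC and TTR had a mean of 0 CPM in senescent DMSO libraries, and the summed level of the 13 was 17.2 to 27.9 CPM in control and 101 to 171 CPM in senescent libraries, most of it from the lysosomal gene CD68. In senescent against control DMSO cells 9 of the 10 fibroblast markers were lower and 1 higher, beside 36% and 32.5% of all genes tested. The endothelial markers PECAM1, CDH5 and VWF had means of 0.210, 0.0134 and 1.12 CPM in control DMSO libraries. In senescent DMSO libraries they were at 2.77, 1.77 and 5.82 CPM. Of the 5 other markers that passed the filter, 4 were called higher, namely these and CD68, while EPCAM did not pass the test. PECAM1 and CDH5 passed the filter through senescent libraries, so nothing is read from this count. The part of these markers in the results below was not tested.

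Activins are dimers of beta subunits encoded by the INHB genes. They bring together type II receptors (ACVR2A, ACVR2B) and type I receptors, which phosphorylate SMAD2 and SMAD3, whereas bone morphogenetic proteins (BMPs) act through SMAD1 and SMAD5. Follistatin, the product of FST, and the related FSTL3 bind activins and keep them from their receptors. GDF15 is a divergent member of the family, released by stressed cells and sensed in the brainstem by the receptor GFRAL with its partner RET. Activin A and GDF15 are among the factors known to be secreted by senescent cells, and INHBE is known mainly as a liver gene that codes for activin E.

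Promoter sequences of 300 bases, from 250 before to 50 after the start of a transcript, were taken from RefSeq on GRCh38.p14 for 9 of the 10 genes, with 3 entries for ACVR1 and none matched for INHBE. Shown are those of the 3 members with the steepest fold changes between senescent and control cells, INHBA and GDF15 with the core promoter motif and FST with the AP-1 site. Capitals mark the motifs that were found, which were the core promoter motif TATAAA and the AP-1 site TGANTCA, each searched on both strands.
INHBA, chr7:41703041-41703340, minus strand: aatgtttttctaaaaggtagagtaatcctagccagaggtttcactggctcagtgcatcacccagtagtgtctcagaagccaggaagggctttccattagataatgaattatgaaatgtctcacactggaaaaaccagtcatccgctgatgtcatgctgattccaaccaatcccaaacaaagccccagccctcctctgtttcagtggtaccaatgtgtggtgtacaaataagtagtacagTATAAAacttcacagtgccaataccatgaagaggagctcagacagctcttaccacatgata
GDF15, chr19:18385908-18386207, plus strand: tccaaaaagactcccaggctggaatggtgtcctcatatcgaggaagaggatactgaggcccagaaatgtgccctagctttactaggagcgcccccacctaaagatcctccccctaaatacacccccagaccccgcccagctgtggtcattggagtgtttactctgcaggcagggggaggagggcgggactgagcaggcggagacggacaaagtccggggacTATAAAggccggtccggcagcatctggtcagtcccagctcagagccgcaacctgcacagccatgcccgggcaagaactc
FST, chr5:53480379-53480678, plus strand: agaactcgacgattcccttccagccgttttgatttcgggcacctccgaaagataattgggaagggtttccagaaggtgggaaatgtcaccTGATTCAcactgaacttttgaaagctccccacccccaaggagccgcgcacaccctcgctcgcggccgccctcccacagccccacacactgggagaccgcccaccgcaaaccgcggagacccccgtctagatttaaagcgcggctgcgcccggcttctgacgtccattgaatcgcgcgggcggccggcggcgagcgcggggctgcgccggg

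TATAAA lay from base -29 to -24 relative to the start in GDF15 and from -11 to -6 in INHBA, and its reverse complement lay from -29 to -24 in FSTL3. Of all 35116 promoters in the RefSeq table, 11.5% held this motif. The AP-1 site was found in FST, from -160 to -154, and in 1 of the ACVR1 entries, against 7.71% of all promoters. TTGCATCA, a composite element of C/EBP and ATF factors, TGACGTCA, the cyclic AMP response element, and GTCTAGAC, the SMAD palindrome, were in none of the 11 entries and in 0.866%, 1.85% and 0.202% of all promoters. These matches describe the letters in these windows only.

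To see how the system differed between senescent and control cells without inhibitor, the DMSO groups were compared. Senescent cells had much more RNA of the ligands INHBA and GDF15 and more of FSTL3, and less of FST, FSTL1 and ACVR2A. Of the 9 genes tested, 3 were higher, 3 were lower and 3 did not pass an adjusted p of 0.05 in edgeR's quasi-likelihood test. Over all genes tested, 32.5% were higher and 36% were lower, so the share of members called was close to that of all genes. The median log2 fold change was -0.083 for the 9 members and -0.051 for all genes. Bulk RNA cannot tell fewer cells of a type from less RNA per cell.

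INHBA (chromosome 7, 41685114 to 41705406) codes for the subunit of activin A. Its level was 43.3, 49.4 and 61.2 CPM in the 3 control DMSO libraries and 2794, 2906 and 2396 CPM in the 3 senescent DMSO libraries. The groups were far apart, with a log2 fold change of 5.72 ± 0.14 (SE, n = 3 per group), or 52.6-fold (edgeR, adjusted p = 7.3e-18). The order of mean levels over the 6 groups was 30.6 ± 2.62 CPM (SD, n = 3) in control IMP1088, 32.0 ± 3.73 in control DDD86481, 51.3 ± 9.09 in control DMSO, 2309 ± 25.5 in senescent IMP1088, 2553 ± 128 in senescent DDD86481 and 2698 ± 268 in senescent DMSO. The lowest pair of this order overlapped between libraries, as did the highest pair.

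GDF15 (chromosome 19, 18386158 to 18389176) was at 41.3, 48.5 and 52.05 CPM in control DMSO libraries and at 833, 716 and 774 CPM in senescent DMSO libraries. The groups did not overlap, and the log2 fold change was 4.03 ± 0.16 (SE), or 16.4-fold (edgeR, adjusted p = 1.23e-14). Its receptor gene GFRAL had a mean of 0 CPM in both DMSO groups and at most 0.0559 CPM in the other groups, below the 3-count floor of 0.121 to 0.187 CPM per library. RET, the signalling partner of GFRAL, was higher in senescent DMSO libraries, at 3.64 ± 0.697 CPM (SD, n = 3) against 0.541 ± 0.168 in control DMSO libraries. The log2 fold change was 2.75 ± 0.28 (SE). RET was low in control libraries and passed the filter through senescent libraries, so its values are a description.

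INHBE (chromosome 12, 57455307 to 57458025) was at 1.05, 0.845 and 1.09 CPM in control DMSO libraries, from 26, 21 and 22 counts. In senescent DMSO libraries it was at 0.0617, 0.809 and 0.440 CPM, from 1, 13 and 8 counts. The groups did not overlap, but the log2 fold change of -1.17 ± 0.67 (SE) did not pass the threshold (edgeR, adjusted p = 0.129). Without the filter on low counts it passed (-1.14, adjusted p = 0.0254), and the adjusted p ran from 0.0254 to 0.386 over 12 alternatives. In the GENCODE annotation 16.4% of the exonic bases of INHBE are shared with a gene on the opposite strand, and the strand setting of the counting was not given. INHBB (chromosome 2, 120346136 to 120351803) had 0 to 4 counts in each of the 18 libraries, did not pass the filter and was not tested.

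**Figure D1:**
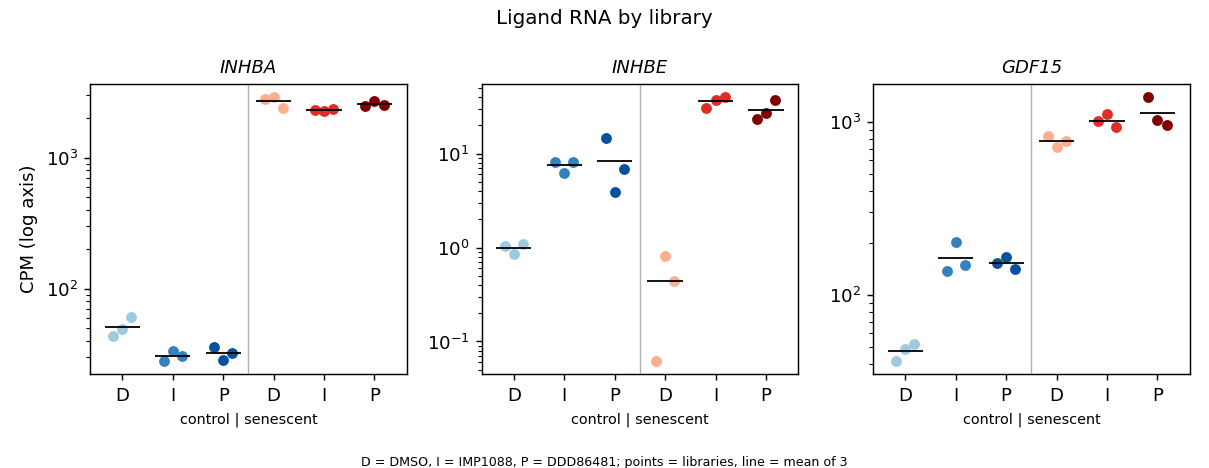
Level of INHBA, INHBE and GDF15 in each library (points) and the mean of 3 libraries (lines), in CPM on a log axis, for control and senescent cells with DMSO (D), IMP1088 (I) or DDD86481 (P). INHBA separates by cell state, INHBE by inhibitor, with its highest group means of 35.9 and 29.0 CPM in senescent cells, and GDF15 is lowest in control DMSO libraries at 47.3 CPM.

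Among the antagonists, FST (chromosome 5, 53480629 to 53487134) was at 83.0, 94.7 and 137 CPM in control DMSO libraries and at 13.2, 15.4 and 13.7 CPM in senescent DMSO libraries. Every senescent library was below every control library, and the log2 fold change was -2.89 ± 0.17 (SE), or 7.42-fold lower (edgeR, adjusted p = 3.92e-12). FSTL3 (chromosome 19, 676392 to 683385), whose product binds activins like follistatin, went the other way, from 30.8, 39.6 and 44.6 CPM to 79.0, 75.3 and 85.5 CPM. Its groups did not overlap either, with a log2 fold change of 1.06 ± 0.14 (edgeR, adjusted p = 9.91e-07). FSTL1 (chromosome 3, 120392293 to 120450992), a secreted glycoprotein that shares a follistatin-like domain, fell from 1846 ± 110 CPM (SD, n = 3) to 916 ± 29.5, by 1.01 on the log2 scale (SE 0.077; edgeR, adjusted p = 3.47e-10).

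The type II receptor gene ACVR2A (chromosome 2, 147844517 to 147930822) was at 7.90, 9.05 and 7.36 CPM in control and at 5.49, 6.29 and 5.66 CPM in senescent DMSO libraries. The groups did not overlap, and the log2 fold change was -0.48 ± 0.15 (SE; edgeR, adjusted p = 0.0075). In GENCODE 6.68% of its exonic bases lie opposite exons of ORC4. ACVR2B (chromosome 3, 38453890 to 38493142), the other type II activin receptor gene, was at 3.11 ± 0.741 CPM (SD, n = 3) in control and 3.12 ± 1.00 in senescent libraries, and ACVR1 (chromosome 2, 157736446 to 157876330), a type I receptor gene, at 69.6 ± 8.46 and 65.7 ± 3.58. Both groups overlapped for each, and neither passed the test (edgeR, adjusted p = 0.986 for ACVR2B and 0.435 for ACVR1). The sign of either small difference depended on single libraries. Without control DMSO replicate 1 the log2 fold change was 0.0025 for ACVR1 and 0.21 for ACVR2B, and ACVR2B was at 0.16 without senescent DMSO replicate 2 and at 0.085 without senescent DMSO replicate 3. The sign of ACVR2B also turned with RLE size factors (0.025), and with upper quartile scaling ACVR1 was called lower (-0.24, adjusted p = 0.0232). Under that scaling the all-gene median shifted by -0.15 (log2) in this comparison, so the ACVR1 value moved by about the shift of all genes. ACVR1B, the type I receptor gene of activins and not a member, was named after its values were seen: it was at 41.0 ± 6.70 CPM in control and 32.2 ± 2.45 in senescent DMSO libraries (log2 fold change -0.35 ± 0.11, edgeR, adjusted p = 0.00849).

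**Figure D2:**
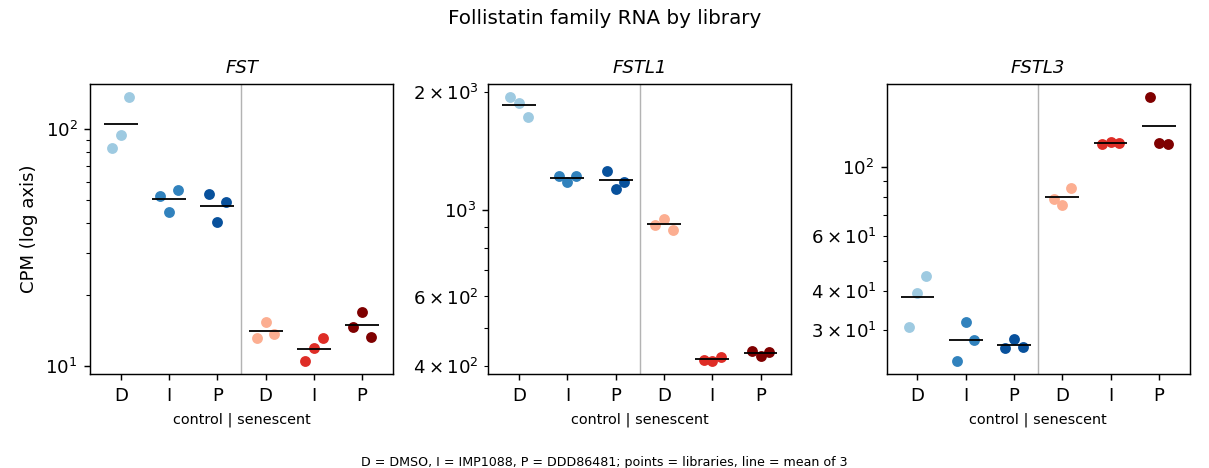
Level of FST, FSTL1 and FSTL3 in each library (points) and the mean of 3 libraries (lines), in CPM on a log axis, for control and senescent cells with DMSO (D), IMP1088 (I) or DDD86481 (P). FST and FSTL1 are highest in control DMSO libraries (105 and 1846 CPM), and all senescent libraries of FSTL3 lie above all control libraries.

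Levels of different genes were compared per kilobase of exon, with lengths from GENCODE that join the exons of all transcripts of a gene. A single transcript can be shorter, so the ranks between genes and the size of the ratio below depend on this choice. In control DMSO libraries FSTL1 was the most abundant member, at 196 ± 11.7 CPM per kb (SD, n = 3), followed by FST at 38.1 ± 10.2, GDF15 at 22.7 ± 2.63 and FSTL3 at 12.6 ± 2.30. INHBA stood at 6.19 ± 1.10 CPM per kb there. In senescent DMSO libraries GDF15 was highest, at 371 ± 27.9, followed by INHBA at 326 ± 32.3, FSTL1 at 97.4 ± 3.14 and FSTL3 at 26.3 ± 1.71 CPM per kb. FST stood at 5.13 ± 0.427 there, below ACVR1 at 6.68 ± 0.364. The libraries of GDF15 and INHBA overlapped, from 343 to 399 and from 289 to 351.

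The ratio of INHBA to the summed level of FST and FSTL3, per kilobase, was 0.130, 0.126 and 0.115 in control DMSO libraries. It was 10.9, 11.5 and 8.72 in senescent DMSO libraries, 6.54, 6.25 and 6.38 with IMP1088 and 4.90, 7.17 and 6.89 with DDD86481. Every senescent library was thus above every control library, and every senescent library with an inhibitor was below every senescent DMSO library. In control cells the ratio was 0.125 to 0.149 with IMP1088 and 0.143 to 0.154 with DDD86481. The share of FST in the sum of both binding proteins was 72.5 to 77.2% in control DMSO and 14.99 to 18.4% in senescent DMSO libraries, and 8.81 to 13.5% in senescent libraries with an inhibitor. These are ratios of RNA, formed from values already described, and have no test of their own.

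**Figure D3:**
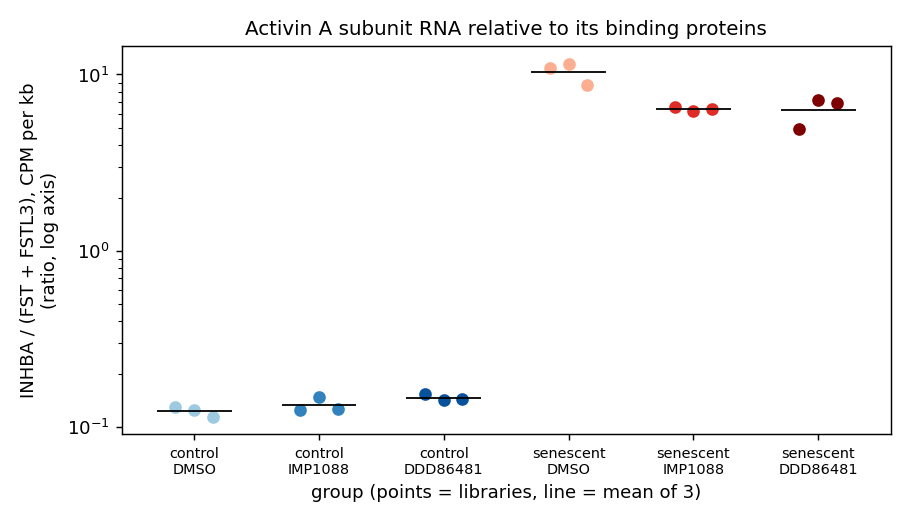
Ratio of INHBA to the sum of FST and FSTL3, each in CPM per kilobase of exon, on a log axis, for each library (points) with the mean of 3 (lines). Control libraries lie between 0.115 and 0.154 and senescent libraries between 4.90 and 11.5.

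Each inhibitor was then compared with DMSO in control cells. Both comparisons use the same 3 control DMSO libraries, and the inhibitors were used at different doses, so their values stand side by side without a test between them. With either inhibitor INHBE, GDF15, ACVR1 and ACVR2B were higher and INHBA, FST, FSTL1 and FSTL3 were lower, while ACVR2A did not pass the test. IMP1088 raised 4 of the 9 members and lowered 4, against 16.3% and 17.4% of all genes. With DDD86481 the counts were again 4 and 4, against 17.8% and 18.7% of all genes. The median log2 fold change of the members was 0.14 with IMP1088 and 0.23 with DDD86481.

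INHBE rose to 8.08, 6.24 and 8.21 CPM in the control IMP1088 libraries. In the control DDD86481 libraries it was at 14.7, 3.87 and 6.78 CPM, a wide spread. All 6 libraries were above the control DMSO libraries, with log2 fold changes of 2.91 ± 0.41 (SE; edgeR, adjusted p = 1.86e-05) with IMP1088 and 3.08 ± 0.41 (adjusted p = 9.77e-06) with DDD86481. GDF15 rose to 138, 202 and 150 CPM with IMP1088 and to 153, 166 and 141 CPM with DDD86481. Its log2 fold changes were 1.79 ± 0.15 (edgeR, adjusted p = 2.96e-08) and 1.70 ± 0.15 (adjusted p = 5.98e-08), and no library overlapped control DMSO.

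INHBA was lower in control cells with an inhibitor, at 27.9, 33.2 and 30.8 CPM with IMP1088 and 35.7, 28.3 and 32.0 CPM with DDD86481. None of these overlapped control DMSO, and the log2 fold changes were -0.74 ± 0.12 (SE; edgeR, adjusted p = 9.21e-05) and -0.68 ± 0.12 (adjusted p = 0.00022). FST fell to 52.3, 44.8 and 55.3 CPM with IMP1088 and to 53.1, 40.4 and 49.3 CPM with DDD86481, by 1.04 and 1.14 on the log2 scale (SE 0.15 each; edgeR, adjusted p = 2.7e-05 and 1.12e-05). FSTL1 fell to 1203 ± 24.8 and 1186 ± 61.2 CPM (SD, n = 3), by 0.62 and 0.64 on the log2 scale (edgeR, adjusted p = 4.8e-06 and 3.45e-06).

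FSTL3 was at 27.9 ± 4.03 CPM (SD, n = 3) with IMP1088 and 27.0 ± 0.980 with DDD86481, against 38.3 ± 6.98 in control DMSO. With IMP1088 the groups overlapped, and the call (log2 fold change -0.45 ± 0.14, edgeR, adjusted p = 0.0171) was lost when only those 2 groups were fitted (adjusted p = 0.0877). It was also lost without control IMP1088 replicate 1 (-0.34, adjusted p = 0.104), without control DMSO replicate 2 (-0.42, 0.0563) and without control DMSO replicate 3 (-0.33, 0.0801). With DDD86481 the groups did not overlap (-0.50 ± 0.14, edgeR, adjusted p = 0.00869). The adjusted p ran from 0.00164 to 0.104 over 12 alternatives for IMP1088, and from 0.000724 to 0.0437 for DDD86481.

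Of the receptors, ACVR1 was at 88.5 ± 4.71 CPM (SD, n = 3) with IMP1088 and 92.9 ± 7.75 with DDD86481, with no library overlapping control DMSO. The log2 fold changes were 0.35 ± 0.092 (SE; edgeR, adjusted p = 0.00659) and 0.42 ± 0.092 (adjusted p = 0.00162), and the call for IMP1088 was lost when only its 2 groups were fitted (adjusted p = 0.0701). ACVR2B was at 5.67, 5.48 and 5.44 CPM with IMP1088 and at 7.46, 4.03 and 6.22 CPM with DDD86481, from 51 to 143 counts in these groups and control DMSO. All 6 values were above the 2.54 to 3.95 CPM of control DMSO, with log2 fold changes of 0.82 ± 0.25 (edgeR, adjusted p = 0.0168) and 0.92 ± 0.25 (adjusted p = 0.0078). Both calls depended on single libraries. For IMP1088 the call was lost without control DMSO replicate 2 (0.76, adjusted p = 0.0572) or replicate 3 (0.70, 0.0538), and for DDD86481 without control DDD86481 replicate 1 (0.73, 0.0587). ACVR2A was at 8.92 ± 0.982 and 9.51 ± 1.69 CPM, overlapping control DMSO (edgeR, adjusted p = 0.488 and 0.227).

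The same inhibitors in senescent cells gave the values on which INHBE had been singled out, and the values below are a description. INHBE was at 30.7, 36.8 and 40.1 CPM in senescent IMP1088 libraries, from 584, 659 and 716 counts. In senescent DDD86481 libraries it was at 23.3, 27.0 and 36.7 CPM, from 427, 516 and 599 counts. All 6 lay far above the 1 to 13 counts of the senescent DMSO libraries and above every control library, including those with an inhibitor. The log2 fold changes were 6.34 ± 0.46 (SE) with IMP1088 and 6.03 ± 0.47 with DDD86481, fitted against counts near the floor. The rise in senescent cells exceeded that in control cells by 3.43 ± 0.72 on the log2 scale with IMP1088 and by 2.95 ± 0.72 with DDD86481. Without senescent DMSO replicate 2, which had 13 counts, the difference for IMP1088 was 4.16.

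In the same fit 3 of 9 members were called higher and 1 lower with IMP1088, beside 20.6% and 23.9% of all genes, and again 3 and 1 with DDD86481, beside 20.1% and 23.1%. As INHBE was noticed in these comparisons, nothing is read from these counts. The 3 higher were INHBE, FSTL3 and GDF15, and FSTL1 was lower, with each inhibitor.

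GDF15 was at 1016, 1107 and 938 CPM in senescent IMP1088 libraries and at 1399, 1022 and 965 CPM in senescent DDD86481 libraries. All were above the 716 to 833 CPM of senescent DMSO, with log2 fold changes of 0.40 ± 0.14 and 0.54 ± 0.14 (SE). The inhibitor effect in senescent cells was thus smaller than in control cells, by -1.39 ± 0.20 with IMP1088 and -1.15 ± 0.20 with DDD86481 on the log2 scale, from a DMSO level that was already 16.4-fold higher. INHBA was at 2319, 2280 and 2329 CPM with IMP1088 and at 2460, 2699 and 2501 CPM with DDD86481, against 2396 to 2906 with DMSO. Its log2 fold changes were -0.22 ± 0.11, without overlap, and -0.080 ± 0.11, with overlap.

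FSTL1 in senescent cells was at 414, 410 and 420 CPM with IMP1088 and at 435, 424 and 434 CPM with DDD86481, all below the 914, 947 and 888 CPM with DMSO. The log2 fold changes were -1.14 ± 0.078 and -1.09 ± 0.077 (SE), against about -0.62 and -0.64 in control cells. The difference between the states was -0.53 ± 0.11 with IMP1088 and -0.45 ± 0.11 with DDD86481. FSTL3 was at 118, 120 and 119 CPM with IMP1088 and at 168, 119 and 118 CPM with DDD86481, above the 75.3 to 85.5 CPM of senescent DMSO. Its log2 fold changes were 0.58 ± 0.14 and 0.76 ± 0.14, opposite in sign to those in control cells, and differed from them by 1.03 ± 0.20 and 1.26 ± 0.20. FST was at 10.5 to 13.1 CPM with IMP1088 and 13.3 to 16.9 CPM with DDD86481, beside 13.2 to 15.4 with DMSO.

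Of the receptor genes in senescent cells, ACVR1 was at 58.7 to 60.3 CPM with IMP1088 and 58.8 to 59.9 CPM with DDD86481, all below the 62.6 to 69.7 CPM of senescent DMSO, with log2 fold changes of -0.14 ± 0.093 for each. ACVR2A was at 6.18 ± 0.472 and 5.74 ± 0.417 CPM (SD, n = 3), beside 5.81 ± 0.418 with DMSO, and ACVR2B at 4.04 ± 1.25 and 4.88 ± 0.794 CPM, beside 3.12 ± 1.00. Both overlapped senescent DMSO with either inhibitor.

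**Figure D4:**
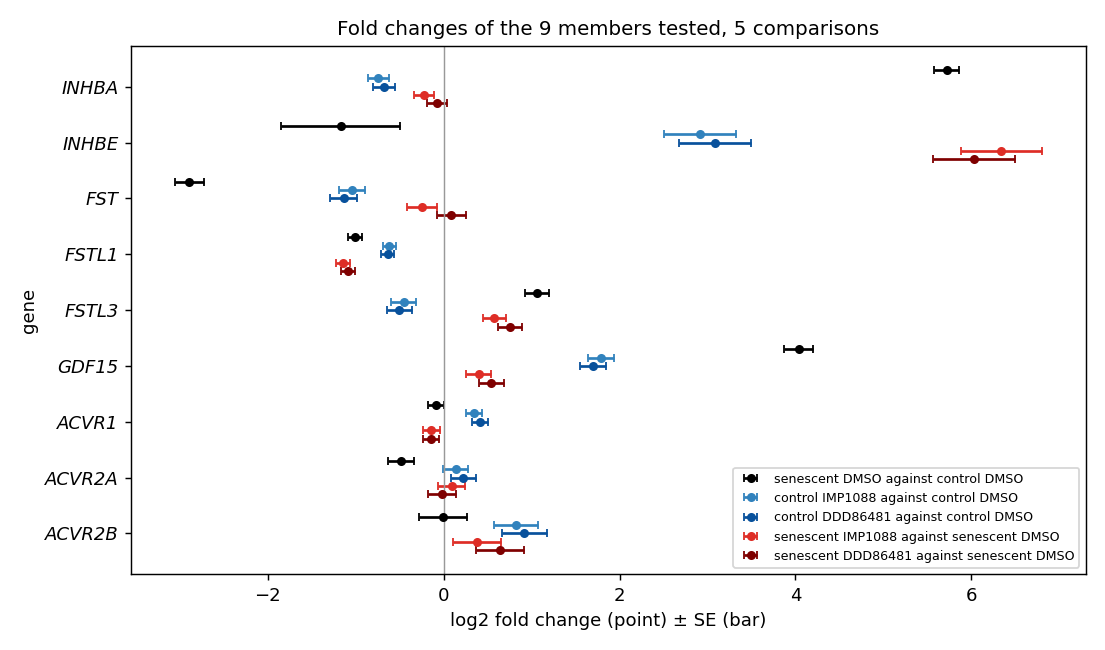
Log2 fold change (points) with SE (bars) of the 9 members tested, on the x axis, in the 5 comparisons given in the legend. INHBA and GDF15 lie farthest right for senescence (5.72 and 4.03), INHBE for the inhibitors in senescent cells (6.34 and 6.03), and FST lies farthest left for senescence (-2.89).

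The rest of the pathway was followed through lists of genes. Their counts stand beside the shares of all genes called higher and lower, which were 32.5% and 36% in senescence, 16.3% and 17.4% with IMP1088 and 17.8% and 18.7% with DDD86481 in control cells, and 20.6% and 23.9% with IMP1088 and 20.1% and 23.1% with DDD86481 in senescent cells. The all-gene median log2 fold change was between -0.051 and 0 in each of the 5 comparisons. A gene could pass the filter through the libraries of 1 state alone, which can set the sign of its difference between states. Of 25 other ligands of the activin and BMP branches, 10 were tested. In senescent DMSO cells 3 were higher and 6 lower (median log2 fold change -2.53, against -0.051 for all genes). Several of these were near or under the floor in 1 state and passed the filter through the other. Their counts and median between states are therefore a description. BMP2 rose from 20.8 ± 3.69 to 637 ± 62.6 CPM (SD, n = 3; log2 fold change 4.94 ± 0.16, edgeR, adjusted p = 4.48e-16), while BMP4 fell from 199 ± 19.0 to 13.1 ± 1.30 CPM (-3.93 ± 0.14, adjusted p = 2.11e-15). In control cells 1 was higher and 3 lower with each inhibitor. In senescent cells 6 of 10 were lower with each inhibitor, and BMP4 dropped further, to 1.66 ± 0.561 CPM with IMP1088 and 2.77 ± 0.488 CPM with DDD86481. INHA and INHBC, the inhibin alpha and activin C subunit genes, did not pass the filter.

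Of the other extracellular antagonists, 10 of 17 were tested, and 2 were higher and 6 lower in senescence (median log2 fold change -1.33). Several of the lower genes were near or under the floor in senescent DMSO libraries and passed the filter through control libraries. This count and median are therefore a description. GREM1, which codes for the BMP antagonist gremlin, rose from 433 ± 13.5 to 1668 ± 59.4 CPM (SD, n = 3; log2 fold change 1.95 ± 0.094, edgeR, adjusted p = 2.08e-13). With IMP1088 and with DDD86481 5 were lower and 1 higher in control cells, and 4 were lower and 0 higher in senescent cells. Of 3 convertase genes tested, 2 were higher and 1 lower in senescence. FURIN, a protease that cleaves activin precursors, was higher (log2 fold change 0.93 ± 0.097, edgeR, adjusted p = 4.3e-08). PCSK5 was lower (-1.43 ± 0.15, edgeR, adjusted p = 5.28e-08). All 3 convertases tested were lower in senescent cells with each inhibitor.

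Among 15 SMAD genes and regulators, 6 were higher and 8 lower in senescence (median log2 fold change -0.45). SMAD3 fell from 360 ± 54.8 to 88.4 ± 7.90 CPM (SD, n = 3; log2 fold change -2.02 ± 0.13, edgeR, adjusted p = 1.42e-11), and SMURF2, a ubiquitin ligase acting on SMADs and receptors, rose (1.62 ± 0.11, adjusted p = 4.51e-11). SMURF2 was lower with both inhibitors in control cells, by 1.50 ± 0.11 and 1.38 ± 0.11 on the log2 scale (edgeR, adjusted p = 6.26e-09 and 1.55e-08). Among 18 other receptors and co-receptors 11 were tested, of which 5 were higher and 5 lower in senescence (median log2 fold change 0.41). RGMA was under the floor in senescent DMSO libraries, at a mean of 0.0183 CPM, and RET was low in control DMSO libraries. This count and median are therefore a description.

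Of 11 known target genes of SMAD2 and SMAD3, 6 were higher and 5 lower in senescence, so the list had no common direction (median log2 fold change 0.31). TAGLN, a smooth muscle cytoskeletal gene, was lower (log2 fold change -4.17 ± 0.18, edgeR, adjusted p = 2.67e-14). In control cells IMP1088 lowered 4 and raised 0, and DDD86481 lowered 5 and raised 0. In senescent cells 8 of 11 were lower and 0 higher with each inhibitor, with median log2 fold changes of -1.09 and -0.92, against -0.043 and -0.037 for all genes. Of 6 target genes of SMAD1 and SMAD5, 5 were lower in senescence (median log2 fold change -2.26), among them ID2 and ID3. HEY1 was higher (log2 fold change 5.50 ± 0.19). HEY1 was low in control DMSO libraries, at a mean of 0.505 CPM, and passed the filter through senescent libraries. A lower gene of the list was near the floor in senescent DMSO libraries and passed the filter through control libraries. This count and median, and the HEY1 values, are therefore a description.

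GDF15 and INHBE are also known targets of the stress factors ATF4 and CHOP, so other targets of these factors were set beside them. Of 13 tested, 8 were higher and 1 lower in senescence, 5 higher and 0 lower with IMP1088 in control cells, and 7 and 0 with DDD86481. In senescent cells 8 were higher and 1 lower with each inhibitor. The median log2 fold change was 0.58 in senescence, 0.46 and 0.53 with the inhibitors in control cells and 0.53 and 0.63 in senescent cells, and all genes called higher made up 16.3% to 32.5% of those tested. TRIB3, a pseudokinase gene, was at 24.3 ± 3.48 CPM (SD, n = 3) in control DMSO and rose with IMP1088 and DDD86481 to 94.1 ± 21.1 and 96.6 ± 29.7 (log2 fold changes 1.95 ± 0.19 and 1.99 ± 0.19, edgeR, adjusted p = 1.7e-07 and 1.37e-07). DDIT3, the gene of CHOP, rose by 1.78 ± 0.20 and 1.61 ± 0.20 in control cells (edgeR, adjusted p = 1.96e-06 and 6.59e-06), and was 1.75 ± 0.20 and 1.31 ± 0.20 higher in senescent cells. NUPR1 was far lower in senescence (-5.23 ± 0.16, edgeR, adjusted p = 1.99e-16).

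GDF15 is a target of p53 as well. Of 14 other p53 target genes, 6 were higher and 6 lower in senescence (median log2 fold change 0.12), and CDKN1A, the gene of the cell cycle inhibitor p21, rose from 377 ± 34.6 to 2126 ± 159 CPM (SD, n = 3; 2.50 ± 0.11, edgeR, adjusted p = 7.88e-14). In control cells IMP1088 lowered 2 and raised 0, and DDD86481 lowered 3 and raised 1. In senescent cells 0 were higher with either inhibitor, and 12 were lower with IMP1088 and 10 with DDD86481. The list median in log2 fold change was -0.62 and -0.49.

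**Figure D5:**
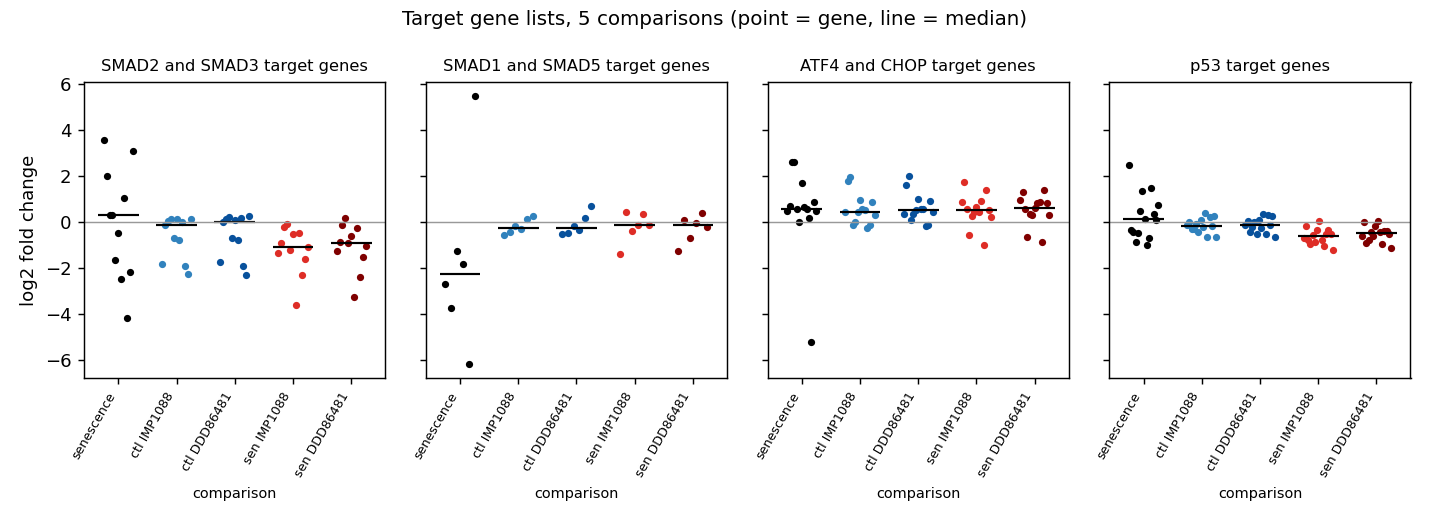
Log2 fold change of each gene tested (points) and the median (line) in 4 lists of target genes, for senescent against control DMSO cells and for each inhibitor against DMSO in control (ctl) and senescent (sen) cells. The points for SMAD2 and SMAD3 targets and p53 targets lie mostly below 0 for the inhibitors in senescent cells, with medians of -1.09 and -0.62 for IMP1088, and those for ATF4 and CHOP targets mostly above 0, with a median of 0.53.

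The genes with a pattern most like that of each member were found by the root mean square difference of log2 CPM, after subtracting each gene's mean over the 18 libraries. For INHBA these were TMEM233, MIR3142HG and MMP1 (0.34, 0.34 and 0.36), and for GDF15 they were MCTP1, BHLHE40 and ICAM5 (0.29, 0.34 and 0.35). For INHBE the nearest were LDHD, DUSP9 and CLDN3, at a wider distance of 0.79, 0.80 and 0.90. FST was nearest to FHL2, SFRP1 and SPIN2A (0.22, 0.26 and 0.28), FSTL1 to PALLD, CALD1 and LIMD2 (0.13, 0.14 and 0.15) and FSTL3 to PPIF, EXOSC4 and HSD17B1 (0.18, 0.20 and 0.21). Between members the smallest distance was 0.18, for ACVR1 and ACVR2A. INHBE and INHBA were 3.57 apart, and INHBA and FST were 4.15 apart, the widest of the pairs of tested members. The 18 libraries share their preparation within the series and differ in depth, so these distances are a description.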

How the data were processed

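Poly(A) RNA of 18 libraries, 3 for each of 6 groups taken from the labels, was sequenced from directional libraries. The authors deposited 1 table of raw counts per gene symbol, in whose columns DDD86481 is called PCLX001. The submitters' processing notes name hg38, DRAGEN, STAR 2.7.8a and DESeq2 1.32.0, whereas the study's methods name hg19, TopHat run with a first-strand library type, and Ensembl annotation, and its software list names HTSeq. Which of these made the table, and the strand setting of the counting step, are not given in the sources used here, so genes that share exons with a neighbour are uncertain. Of 28266 rows, 6836 held no count.

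The filter filterByExpr of edgeR 4.0.16 (R 4.3.3, limma 3.58.1) kept 14341 genes. After TMM scaling, the quasi-likelihood test was run in 1 fit over the 6 groups, with Benjamini-Hochberg adjustment over all genes tested and a threshold of 0.05. Standard errors came from the F statistic, and log2 CPM used a prior count of 2. The floor of a library was 3 counts, or 0.121 to 0.187 CPM, and covers counting error only. The members and lists were chosen with earlier results of these data known. All 10 members were named, and of each list at most the 2 genes of highest level and the 2 of largest change past the threshold in a comparison, apart from ACVR1B, GFRAL, INHA, INHBC and the cell markers, named after their values were seen. The values of 1 further gene that this rule names are not reported here.

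Positions and promoters came from RefSeq on GRCh38.p14. Exon lengths and overlaps came from GENCODE v44 on GRCh37, from which no coordinate is given. Replicates differed by more than sampling noise (chi-square per gene of at least 5.26), so no library was a duplicate. Deviations of libraries with the same replicate number from their group means were correlated. Only between the control DMSO and control IMP1088 groups was r above 0.1 in all pairs (0.394, 0.123, 0.231). With 3 libraries per group, these r values cannot show whether libraries were paired by number. The values given come from the fit without a block, and the replicate block is an alternative. Alternatives were DESeq2 1.42.0, RLE and upper quartile scaling, no filter, a fit of only the 2 groups compared, a replicate block, each library left out, and levels scaled by library totals alone.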

Additional observations from a re-analysis of the deposited data

Results flagged for a closer look

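A set of 3 differences between cell states was flagged by a rule. Every library with an inhibitor lay on one side of all DMSO libraries in control cells and on the other side in senescent cells. The share of all genes that meet this rule was not counted, so nothing is read from the number of members flagged. They were not tested, since the senescent comparisons had drawn attention to the members. For ACVR1 the log2 fold changes in control cells were 0.35 with IMP1088 and 0.42 with DDD86481. Those in senescent cells were -0.14 ± 0.093 (SE) with each, and neither was called in the same fit. The senescent minus control differences were -0.4841 and -0.5592. For FSTL3 with DDD86481 the log2 fold changes were -0.50 in control and 0.76 in senescent cells, a difference of 1.26. No library was tested as an outlier, as each group has 3 libraries.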

How the results depend on the processing

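DESeq2, RLE scaling, upper quartile scaling, the unfiltered fit and the replicate block left the number of genes called in each of the 5 comparisons within 1.5 times that of the fit described, as did each leave-one-out fit. Fitting only the 2 groups compared gave 2716 genes instead of 4829 for IMP1088 in control cells and 2842 instead of 5242 for DDD86481; fewer libraries then estimate the spread. With the replicate block, pairing libraries by number, 5003 genes were called for IMP1088 in control cells and 9913 for senescence, and no member call changed. Upper quartile scaling called 3795 higher and 6149 lower in senescence, against 4663 and 5164.

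Of the member fold changes, ACVR2B in senescence turned positive with RLE factors (0.0247), without the filter (0.0238), with DESeq2 (0.0284) and with only 2 groups (0.0168), and ran from -0.287 to 0.205 with single libraries left out. ACVR1 in senescence ran from -0.173 to 0.00249. The cause was not tested. With single libraries left out, 6 calls were lost, all of FSTL3 or ACVR2B with an inhibitor in control cells. In the differences between states, the value moved by more than the spread for FSTL1 with DDD86481 (-0.37), GDF15 (-1.17), INHBE (4.16) and FST (0.56) with IMP1088. Scaled by library totals alone, 22 of 60 mean levels moved by more than 1 SD. Depth limits INHBB, at 0 to 4 counts, and INHBE in senescent DMSO cells.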
